A study of Mus musculus with 124 samples.

Results

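The 10 genes described here are established astrocyte genes of the brain: Gfap, Aqp4, Aldh1l1, Slc1a2, Slc1a3, Gja1, Gjb6, Glul, S100b and Aldoc. They were chosen by name, and all 10 were found among the 17108 named genes of the mouse cortex table. The cortex came from 62 mice aged 11 to 12 weeks, with food freely available and 12 h of light a day, and each mouse gave 1 RNA-seq library. Gentle handling kept 36 of the mice awake (SD) through the first 6 h of the light period, T24 to T30 on a clock that starts with the baseline day. They were killed 3 at a time: after 3 h of deprivation (T27), when it ended (T30), on the first recovery day (T36, T42), on the second (T48, T54, T60, T66), on the third (T72, T78) and after 7 days (T192, T198). The other 26 mice (NSD) were left undisturbed. Of these, 8 were killed at zeitgeber time 0 (ZT0, light onset), 3 at ZT3, and 5 each at ZT6, ZT12 and ZT18. Each deprived group was set against the undisturbed mice of the same ZT, so T30, T54, T78 and T198 share the ZT6 controls, and T48, T72 and T192 share those of ZT0. T36 and T60 share the ZT12 controls, and T42 and T66 those of ZT18. The sources used here do not give the strain.

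Astrocytes are glial cells that tile the cortex, wrap synapses and send endfeet onto blood vessels. They clear glutamate from the synapse, convert it to glutamine, which neurons take up and turn back into transmitter, buffer potassium and water, and are joined to each other by gap junctions. When tissue is stressed or injured they raise intermediate filament and other reactive genes. Among the 10 genes, Slc1a2 and Slc1a3 encode the glutamate transporters GLT-1 and GLAST, and Glul encodes glutamine synthetase. Gja1 and Gjb6 encode the gap junction proteins connexin 43 and connexin 30. Aqp4 encodes the water channel of the endfeet. Gfap encodes the glial intermediate filament, S100b a calcium-binding protein, Aldoc the brain form of the glycolytic enzyme aldolase, and Aldh1l1 an enzyme of folate metabolism.

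Levels are given as log2 CPM, the log2 of a gene's reads relative to all reads of its library, and the depth of the libraries is unknown. Over all genes, pairs of mice of 1 group had root mean square differences between 0.23 and 0.376 log2. The cortical identity of the libraries was visible in the neuron markers, all 10 of which were measured, with a summed level of 11900 to 13900 CPM. The 10 astrocyte genes summed to between 6590 and 8230 CPM in the 62 libraries, and no member was below 1 CPM in any group.

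Per kilobase of merged exons, the order of the mean cortical levels began with Glul (8.72 log2 CPM per kb), Slc1a2 (8.28) and Aldoc (7.52). Slc1a3 (6.15) and S100b (5.86) followed. The remaining genes lay close together, with Gjb6 at 4.21, Aqp4 at 4.18, Gfap and Gja1 at 4.01 each and Aldh1l1 at 3.74 log2 CPM per kb. All 10 lay in the upper part of the cortical range, since their levels, not divided by length, stood between the 73.6th (Gjb6) and the 100th (Slc1a2) percentile of all genes. Mice of 1 group differed least in Glul, with a residual SD of 0.0618 log2, the 15th percentile of all genes. They differed most in Gfap, with a residual SD of 0.184, the 71.6th percentile. Aqp4 (GRCm38 chromosome 18, 15389496 to 15410982, minus strand) and Gjb6 came next to Gfap, with residual SDs of 0.119 and 0.123. Of the 10 loci, 7 overlap another annotated gene, and for 6 of them such a gene lies on the opposite strand, for example Teddm2 at Glul and Dip2a at S100b. The sources used here do not say whether the cortex reads were counted by strand.

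In undisturbed mice the astrocyte genes moved little with the time of day. The difference between the highest and the lowest group mean over ZT0, ZT3, ZT6, ZT12 and ZT18 had a median of 0.13 log2 over the 10 genes, against 0.21 over all genes, and 9 of the 10 lay below that value. Only Glul passed the F test over the 5 times (limma, adjusted p = 0.0333), while 41.9% of all genes did so. Glul averaged 10.49 ± 0.05 at ZT0, 10.45 ± 0.07 at ZT3, 10.37 ± 0.09 at ZT6, 10.41 ± 0.05 at ZT12 and 10.49 ± 0.02 at ZT18 (log2 CPM, SD). The mean was 0.12 ± 0.04 (SE) higher at ZT18 than at ZT6 (limma, adjusted p = 0.0215), and no pair of neighbours in the order of its means differed past the threshold. The F test of Glul was no longer past the threshold with batch 1 controls alone (adjusted p = 0.284), or without any of 8 of the 26 undisturbed libraries (adjusted p up to 0.102).

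Gfap had the widest range of the 10 genes, 0.32 log2, with its highest mean at ZT3 and its lowest at ZT18 (F test, adjusted p = 0.236). The ZT3 mice had 6.69, 6.03 and 6.15 log2 CPM of Gfap, and the ZT18 mice had 6.07, 5.97, 5.94, 5.96 and 5.91. The ZT3 mean rested on its first library. The summed choroid plexus markers of the ZT3 mice ran from 266 to 434 CPM with a median of 285, against at most 292 CPM in the other undisturbed groups. Whether the same mouse was highest in both was not tested. The part of those markers in the Gfap value was not tested. Gja1 and Aldh1l1 were highest at ZT0 and lowest at ZT18, by 0.13 and 0.14 log2 (F test, adjusted p = 0.0983 and 0.108). With batch 1 controls alone both passed, with ranges of 0.19 and 0.22 log2 (adjusted p = 0.0453 and 0.033). Slc1a2, Slc1a3 and S100b each spanned 0.07 log2, Aldoc 0.12, Gjb6 0.16 and Aqp4 0.19, and none of these passed the threshold.

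**Figure D1:**
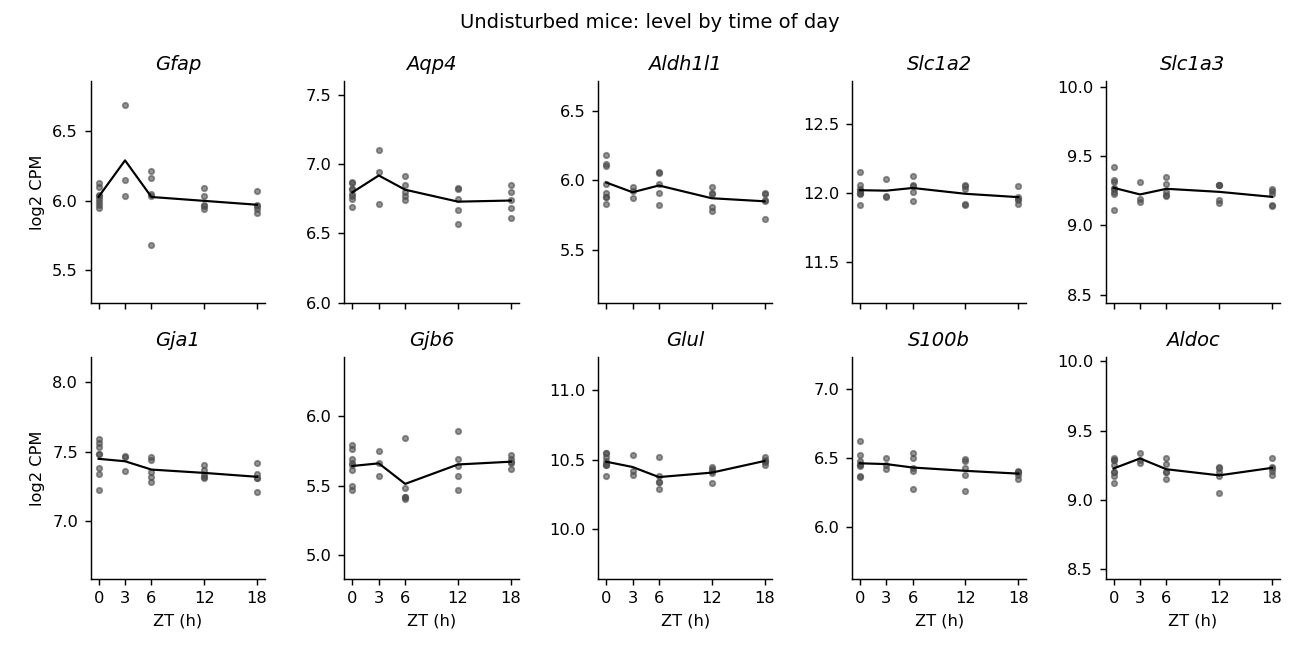
Level of the 10 astrocyte genes in undisturbed cortex (log2 CPM, vertical axes of equal span) against zeitgeber time in hours. Points are single mice (n = 8, 3, 5, 5 and 5 at ZT0, 3, 6, 12 and 18) and the line joins the group means. The lines are nearly flat, the ranges run from 0.07 to 0.32 log2, and the high Gfap mean at ZT3 comes with 1 library at 6.69.

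After 3 h of sleep deprivation (T27) none of the 10 genes passed the threshold (limma, adjusted p under 0.05), and 2 had an unadjusted p under 0.05. Over all genes 16.4% passed. Those 2 were Gjb6 and Glul. Gjb6 had 5.92, 5.95 and 5.82 log2 CPM in the deprived mice, against 5.66, 5.57 and 5.75 in the undisturbed mice of ZT3. Every deprived library stood above every control, and the difference was 0.24 ± 0.10 (SE, limma adjusted p = 0.0825). Glul had 10.61, 10.57 and 10.54 in the deprived mice, against 10.39, 10.42 and 10.53 in the undisturbed mice. Its libraries did not overlap either, and the difference was 0.12 ± 0.05 (limma adjusted p = 0.088). The share of all cortex genes whose groups did not overlap was not counted, at this or any later time. S100b had 6.61, 6.57 and 6.50 in deprived mice, against 6.45, 6.42 and 6.50 in undisturbed mice, so that the groups met to 2 decimals, and a difference of 0.10 ± 0.06 (limma adjusted p = 0.265). The median over the 10 genes was 0.03 log2, beside -0.007 over all genes. In bulk tissue a change in the number of astrocytes and a change in RNA per astrocyte cannot be told apart, here and below.

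Among the 36 further astrocyte genes at T27 1 was higher and none lower, the thyroid hormone transporter gene Slco1c1 (0.29, limma adjusted p = 0.00658), and the median was -0.02. Over all 17108 genes 1469 were called as higher and 1341 as lower at T27. Of 22 listed reactive genes 17 were measured, and Lcn2 and C3 were among those that were not. Of the 17, 2 or 3 averaged below 1 CPM in each group of mice, here and at the later times. Of the 17 reactive genes 4 were higher, with a median of 0.12: Ptgs2 (1.27), Emp1 (0.81), Nes, which encodes the filament protein nestin (0.78), and S100a10 (0.24), with limma adjusted p up to 0.0141. In bulk cortex the cells in which a listed gene changed were not measured, here and at the later times. None of the genes of glutamate handling, of the endfoot or of secreted synapse factors was called at T27 (limma, 3, 1 and 1 at an unadjusted p under 0.05). Of the markers of other cells, 4 of 6 for the choroid plexus were lower, with sums of 228 to 246 CPM in deprived and 266 to 434 CPM in undisturbed mice. The median sum of the 3 undisturbed mice was 285 CPM, so 1 of them stood well above the others. Of these 6 markers, 3 averaged below 1 CPM in the deprived and 2 in the undisturbed mice. The sums mostly follow the most abundant markers, while the called changes ran from -3.35 (Ttr) to -0.26 (Enpp2). The mean log2 level of the 6 markers per library was 0.71 to 1.04 in deprived and 1.47 to 3.45 in undisturbed mice. All 10 markers of meninges and fibroblasts were negative, 2 of them called, with sums of 413 to 551 CPM in deprived and 569 to 757 CPM in undisturbed mice. Of the other lists, 3 of 10 endothelial markers and 1 of 10 mural cell markers were lower, and 1 neuron marker and 1 precursor marker were higher. The part of these markers in the values of the astrocyte genes was not tested.

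At the end of 6 h of deprivation (T30) Gjb6 and Glul were higher in deprived than in undisturbed mice, and the other 8 genes did not pass the threshold. These 2 of 10 genes stand beside 32.4% of all genes called at T30, and beside 15.7% called as higher, so the count is near the background of this comparison. The median over the 10 genes was 0.02 log2, and over all genes it was -0.01.

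Gjb6 lies on GRCm38 chromosome 14, 57123303 to 57133611, on the minus strand, and encodes connexin 30, which in the adult brain joins astrocytes to each other. The deprived mice had 5.94, 5.68 and 5.97 log2 CPM, and the undisturbed mice of ZT6 had 5.40, 5.42, 5.42, 5.84 and 5.48. All 3 deprived libraries lay above 4 of the controls, and the remaining control (mouse T6N3, at 5.84) lay above the lowest deprived library. The means were 5.86 in deprived and 5.51 in undisturbed mice, a difference of 0.35 ± 0.09 (SE) or 1.27-fold (limma, adjusted p = 0.00157). Leaving out single libraries gave 0.29 to 0.45 log2, with adjusted p up to 0.0249. In a fit of the 2 groups alone, which kept the batch term, the difference was 0.28 log2 and no longer passed (limma, adjusted p = 0.0617). All T30 mice were in batch 1, so that estimate rested on the batch 1 controls only, T6N3 among them.

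Glul lies on GRCm38 chromosome 1, 153899944 to 153909723, on the plus strand. It had 10.62, 10.45 and 10.56 log2 CPM in the deprived mice, against 10.34, 10.38, 10.34, 10.52 and 10.29 in the undisturbed mice of ZT6. The groups overlapped through the lowest deprived library and the same undisturbed mouse, T6N3. The difference was 0.17 ± 0.05 or 1.12-fold (limma, adjusted p = 0.00453). It lost its call without the deprived mouse T30S1, at 0.13 log2 (limma, adjusted p = 0.0616). It also lost it in a fit of the 2 groups alone, again in effect against the batch 1 controls, at 0.16 log2 (limma, adjusted p = 0.0864).

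The promoters of Gjb6 and Glul are shown because these genes were both higher at T30. Each is the 250 bases before the RefSeq start of the gene (RefSeq on GRCm38.p6), 5′ to 3′ on the strand of the gene, and RefSeq promoters were matched for 9 of the 10 genes. Gjb6 is at chr14:57133612-57133861 on the minus strand and Glul at chr1:153899679-153899928 on the plus strand. Capitals mark matches, on either strand, to the motifs TATAAA (bound by the basal machinery), CCAAT (bound by NF-Y), CACGTG (E-box), TGACG (core of the cyclic AMP response element), TGANTCA (AP-1 element), TTCNNNGAA (STAT element), GGGCGG (GC box) and the glucocorticoid response element.
Gjb6: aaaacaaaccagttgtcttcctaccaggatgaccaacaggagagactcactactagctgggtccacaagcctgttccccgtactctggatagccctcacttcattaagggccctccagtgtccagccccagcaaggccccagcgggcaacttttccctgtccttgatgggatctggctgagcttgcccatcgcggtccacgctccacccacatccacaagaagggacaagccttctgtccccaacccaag
Glul: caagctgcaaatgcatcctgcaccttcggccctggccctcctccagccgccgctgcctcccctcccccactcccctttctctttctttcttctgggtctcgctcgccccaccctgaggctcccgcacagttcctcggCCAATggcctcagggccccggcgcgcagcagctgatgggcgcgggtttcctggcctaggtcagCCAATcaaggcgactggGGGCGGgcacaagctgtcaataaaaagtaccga
The Gjb6 window held no match to any of the 8 motifs, and the Glul window held 2 CCAAT boxes and 1 GC box, all on the plus strand and none overlapping another. Over 32851 promoter windows of the same length, CCAAT was found in 33.8% and GGGCGG in 32.7%. The others were found in 12.4% (TATAAA), 6.02% (CACGTG), 17.8% (TGACG), 6.75% (TGANTCA), 7.02% (TTCNNNGAA) and 0.387% (glucocorticoid response element). A match describes the letters and is not a measured binding site.

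The other 8 genes did not pass at T30. Gfap had 6.18, 6.14 and 6.36 log2 CPM in deprived mice, against 6.21, 6.05, 6.03, 6.16 and 5.68 in undisturbed mice, a difference of 0.20 ± 0.13 (limma adjusted p = 0.236). The glutamate transporters differed by 0.01 (Slc1a2) and -0.06 (Slc1a3), and the other connexin, Gja1, by -0.07. Aqp4, Aldh1l1, S100b and Aldoc lay between -0.05 and 0.04. The 95% intervals of these 8 genes ran from -0.20 to 0.46 log2. The change at T30 differed from that at T27, tested as a difference of differences, for none of the 10 genes (limma, smallest adjusted p = 0.698, none at an unadjusted p under 0.05). In that test 0.00585% of all genes passed.

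Related astrocyte genes gave a mixed picture at T30, where 32.4% of all genes passed and 15.7% passed as higher. Of 36 further astrocyte genes 3 were higher and 2 lower, with a median of -0.01 log2 beside the same value over all genes. Htra1, a secreted protease, was higher by 0.36, Cbs, an enzyme of sulfur amino acid metabolism, by 0.30 and Fgfr3, a growth factor receptor, by 0.17, while Tril, a partner of Toll-like receptors, was lower (-0.26). In the list of glutamate and glutamine handling 2 of 15 genes were higher, Slc38a2 by 0.41 and Slc38a1 by 0.13, both encoding glutamine transporters that neurons also use. In the endfoot list 1 of 12 was higher, the calcium channel gene Trpv4 (0.81). Among 17 measured genes of reactive astrocytes 6 were higher and none lower, with a median of 0.16 log2. They included Ptgs2 (1.09), Emp1 (0.96), Timp1 (1.34) and S100a10 (0.40), and Ptgs2, which encodes cyclooxygenase-2, is also made by neurons. Adjusted p-values of the genes named in this paragraph ran up to 0.0366 (limma, Fgfr3).

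Markers of other cells also moved at T30, where 32.4% of all genes passed, and the part of these markers in the results for Gjb6 and Glul was not tested. Of 10 oligodendrocyte markers 2 were lower (Opalin by -0.99 and Mog by -0.35), with summed levels of 2070 to 2770 CPM in deprived and 2290 to 3040 CPM in undisturbed mice. Of 10 microglia markers 4 were lower and 1 higher, with sums of 344 to 357 CPM in deprived and 365 to 377 CPM in undisturbed mice. Of 10 endothelial markers 3 were lower and 1 higher, with sums of 351 to 365 CPM in deprived and 374 to 403 CPM in undisturbed mice. Of 8 markers of oligodendrocyte precursors 2 were higher, Gpr17 by 0.43 and Olig2 by 0.34. Of 10 neuron markers 1 was higher and 2 were lower, 1 of 10 mural cell markers and 2 of 6 choroid plexus markers were lower, and 1 of 4 ependymal markers was higher. The summed neuron markers ranged from 12500 to 13000 CPM in deprived mice and from 12700 to 13400 CPM in undisturbed mice. None of the markers of oligodendrocytes, microglia, endothelium or neurons was below 1 CPM in either group.

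**Figure D2:**
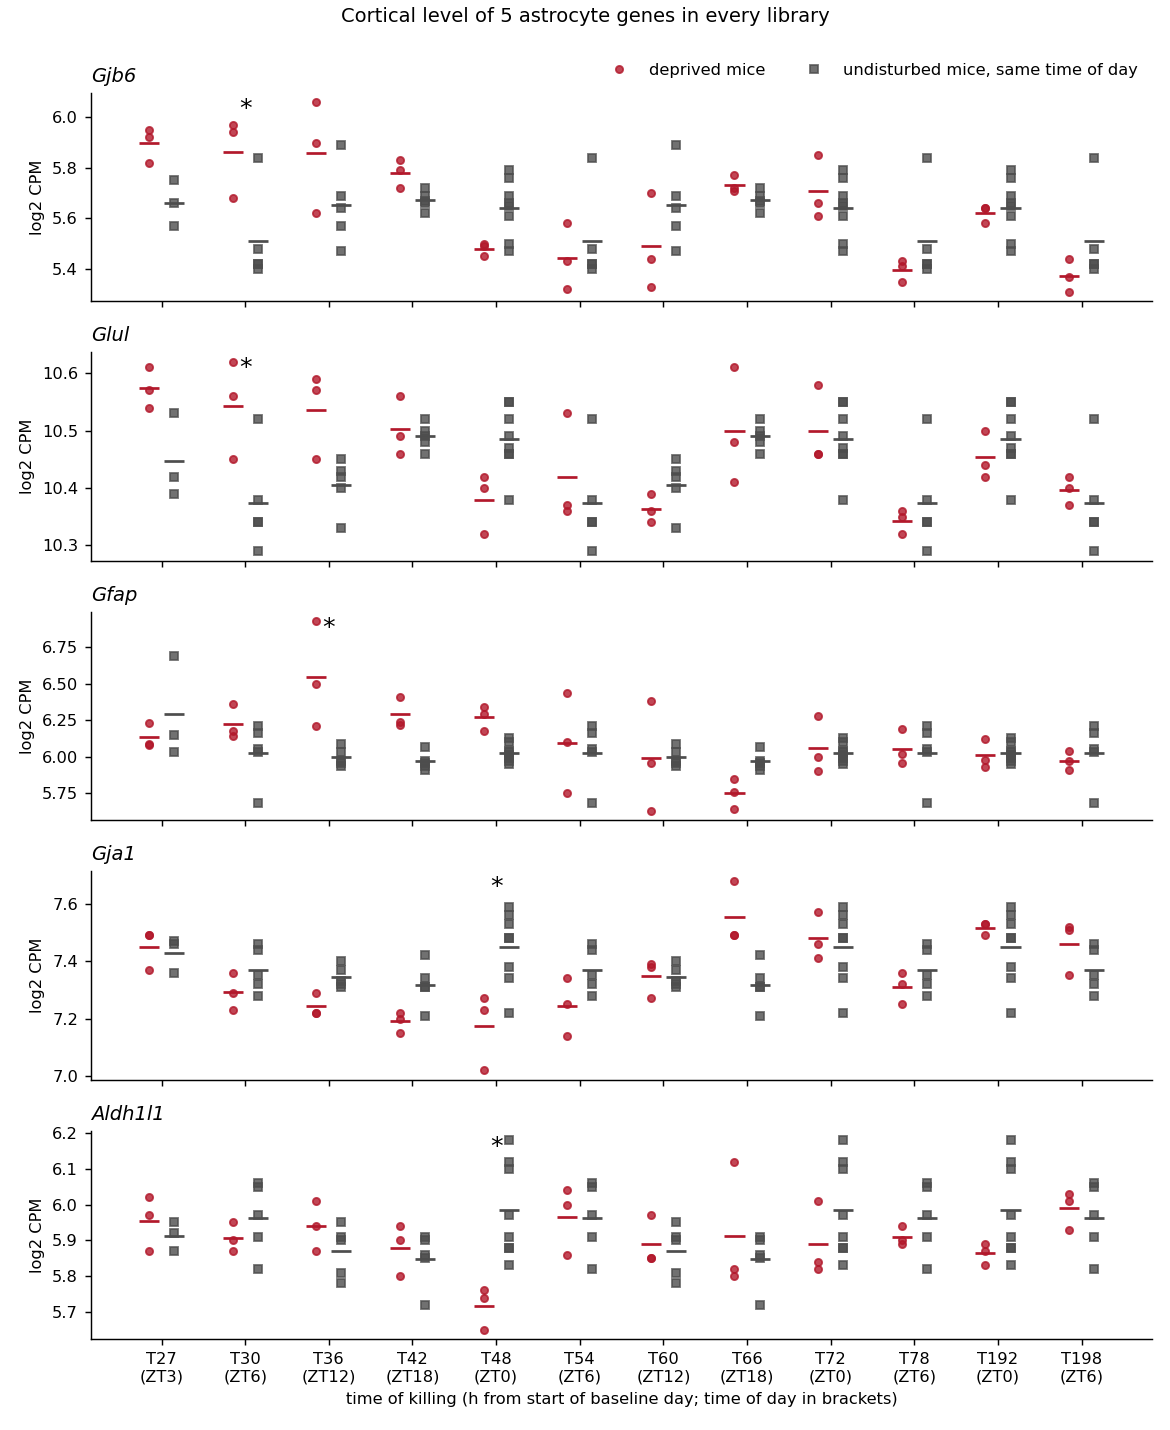
Level (log2 CPM) of Gjb6, Glul, Gfap, Gja1 and Aldh1l1 in every library. At each time the deprived mice (red circles, n = 3) stand left of the undisturbed mice of the same ZT (grey squares, n = 3 to 8), bars are group means and an asterisk marks a limma adjusted p under 0.05. Gjb6 and Glul are marked at T30, Gfap at T36, where the 3 deprived mice lie between 6.21 and 6.93 above all controls, and Gja1 and Aldh1l1 at T48.

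At T36, 6 h into recovery, Gfap was the gene that passed. It lies on GRCm38 chromosome 11, 102887336 to 102900912, on the minus strand. The deprived mice had 6.93, 6.50 and 6.21 log2 CPM, against 5.97, 6.03, 5.94, 5.96 and 6.09 in the undisturbed mice of ZT12. Every deprived library was above every control. The deprived mice lay farther apart than the controls, with SDs of 0.36 and 0.06 log2, while the test used 1 estimate of the spread over all 17 groups. The difference was 0.55 ± 0.13 or 1.46-fold (limma, adjusted p = 0.00241). Without the highest deprived mouse, T36S1, it was 0.36 log2 and no longer passed (limma, adjusted p = 0.113), and leaving out other single libraries gave up to 0.71. The count of 1 in 10 stands beside 12.5% of all genes called at T36, and 6.9% called as higher.

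Glul and Gjb6 did not pass at T36. Glul had 10.59, 10.57 and 10.45 log2 CPM in deprived mice, against 10.42, 10.45, 10.33, 10.40 and 10.43 in undisturbed mice. The lowest deprived value was the highest control value to 2 decimals, and the difference was 0.13 ± 0.05 (limma, adjusted p = 0.0528). It passed without a batch term (limma, adjusted p = 0.0391), with libraries centred on their median (0.0389), and without the lowest 20% of genes (0.0447). Gjb6 had 6.06, 5.90 and 5.62 in deprived mice, against 5.57, 5.69, 5.47, 5.64 and 5.89 in undisturbed mice, with overlapping groups and a difference of 0.21 ± 0.09 (limma, adjusted p = 0.105). Against batch 1 controls alone it was 0.29 and passed (limma, adjusted p = 0.0338). Without the deprived mouse T36S4 both genes passed, Gjb6 at 0.33 (limma, adjusted p = 0.0142) and Glul at 0.18 (0.022).

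Of the remaining genes at T36, Aqp4 (0.15) and Aldoc (0.10) were positive and Gja1 negative (-0.10), with adjusted p from 0.275 to 0.322. All 3 deprived libraries of Gja1, at 7.29, 7.22 and 7.22, lay under the 5 controls, which ranged from 7.31 to 7.40. Aldh1l1, Slc1a2, Slc1a3 and S100b lay between -0.02 and 0.07. The median over the 10 genes was 0.08 log2, beside -0.003 over all genes. The change at T36 differed from that at T30 for none of the 10 genes (limma, smallest adjusted p = 0.214, none at an unadjusted p under 0.05), while 12.2% of all genes passed that test. For Gfap the difference between the changes was 0.35 log2, with a 95% interval of -0.01 to 0.70.

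Among the 36 further astrocyte genes 4 were higher and none lower at T36, with 28 positive values and a median of 0.05. Over all genes 12.5% passed at T36, and 6.9% passed as higher. Htra1 (0.41) and Cbs (0.45) were called here as at T30, together with Lcat, a cholesterol-esterifying enzyme of lipoprotein particles (0.41), and Slco1c1, a thyroid hormone transporter (0.26), with limma adjusted p up to 0.013. Of the 17 reactive genes 5 were higher, with a median of 0.16. Timp1, an inhibitor of metalloproteinases, differed by 2.01 log2, Ptgs2 by 0.84, S100a10 by 0.38 and Stat3, a transcription factor that acts on Gfap in reactive astrocytes, by 0.15 (limma adjusted p = 0.0253). In the endfoot list Dag1, which encodes dystroglycan, was higher (0.13), while Sntb1 (-0.48) and Dmd (-0.20), encoding a syntrophin and dystrophin, were lower. Slc7a11, the cystine and glutamate exchanger, was lower (-0.34).

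Markers of other cells moved at T36 as well, where 12.5% of all genes passed. All 10 oligodendrocyte markers were negative, with a median of -0.24 log2 and none called (6 at an unadjusted p under 0.05), and summed levels of 2170 to 2340 CPM in deprived and 2310 to 2940 CPM in undisturbed mice. This was not particular to T36. All 10 were also positive at T48, T60 and T66, and all 10 negative at T54, T72, T78 and T192, with none called. The median was -0.26 at T72 and -0.24 at T192. All 10 mural cell markers were positive, with a median of 0.20, none called (4 at an unadjusted p under 0.05), and sums of 305 to 338 CPM in deprived and 280 to 312 CPM in undisturbed mice. No marker of either list was below 1 CPM. Of 10 endothelial markers 2 were higher (Pecam1 by 0.29 and Cdh5 by 0.26) and 1 was lower (Itm2a, -0.26), with sums of 361 to 389 CPM in deprived and 349 to 400 CPM in undisturbed mice. Of 10 microglia markers 1 was lower (P2ry12, -0.21), with sums of 357 to 380 CPM in deprived and 341 to 375 CPM in undisturbed mice. In the choroid plexus list Enpp2 was lower (-0.15), and in the ependymal list Foxj1 was higher (0.59). The part of these markers in the Gfap result was not tested.

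At T42, 12 h into recovery, none of the 10 genes passed (limma, 2 at an unadjusted p under 0.05), while 1.03% of all genes did. Gfap had 6.24, 6.22 and 6.41 log2 CPM in the deprived mice, against 6.07, 5.97, 5.94, 5.96 and 5.91 in the undisturbed mice of ZT18. The groups did not overlap, and the difference was 0.32 ± 0.13 (limma, adjusted p = 0.262). Gja1 had 7.15, 7.20 and 7.22 in deprived mice, against 7.34, 7.21, 7.31, 7.42 and 7.31 in undisturbed mice, a difference of -0.13 ± 0.06 (limma, adjusted p = 0.377). The other 8 genes lay between 0.01 and 0.10 log2, all positive, and the median over the 10 genes was 0.08, beside 0 over all genes. Among these 8, S100b (0.08) had every deprived library above every control. None of the 36 further astrocyte genes was called (limma, 4 at an unadjusted p under 0.05), with 32 positive values and a median of 0.06, and none of the 17 reactive genes (2 at an unadjusted p under 0.05).

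At T48, 18 h after the end of deprivation and at light onset, Gja1 and Aldh1l1 were lower in deprived than in undisturbed mice. Negative values were found for 9 of the 10 genes, with a median of -0.10 log2, beside 0.001 over all genes. The 2 calls stand beside 1.49% of all genes called at T48 (255 genes), and 0.719% called as lower. The count of 255 was between 113 and 157 when any of the mice T48S1, T48S3, T48S4, T0N2 and T0N5 was left out alone.

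Gja1 lies on GRCm38 chromosome 10, 56377330 to 56402513, on the plus strand, and encodes connexin 43, the main gap junction protein of astrocytes. The deprived mice had 7.23, 7.27 and 7.02 log2 CPM. The 8 undisturbed mice of ZT0 ranged from 7.22 to 7.59, and their mean was 7.45, against 7.17 in deprived mice. The groups met at the lowest control, which lay below 2 of the deprived libraries. The difference was -0.27 ± 0.06, or 0.828-fold (limma, adjusted p = 0.0072). It was -0.20 without the deprived mouse T48S4 and no longer passed (limma, adjusted p = 0.147). Nor did it pass in a fit of the 2 groups alone, at -0.30 (limma, adjusted p = 0.126). That fit kept the batch term, so its estimate rested on the batch 1 controls.

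Aldh1l1 lies on GRCm38 chromosome 6, 90486427 to 90600203, on the plus strand. It had 5.65, 5.76 and 5.74 log2 CPM in the deprived mice, and the undisturbed mice of ZT0 ranged from 5.83 to 6.18. All deprived libraries were below all controls. The difference was -0.27 ± 0.06, or 0.83-fold (limma, adjusted p = 0.0166). The call was lost in a fit of the 2 groups alone, in effect against the batch 1 controls (limma, adjusted p = 0.0727). It was also lost without the deprived mouse T48S1 (0.114), and without either of the undisturbed mice T0N2 (0.0541) and T0N5 (0.058). These fits gave differences of -0.33 to -0.23 log2.

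The promoters of these genes are given because both fell at the same time, with windows, motifs and capitals as for Gjb6 and Glul (RefSeq on GRCm38.p6). Gja1 is at chr10:56377050-56377299 and Aldh1l1 at chr6:90550543-90550792, both on the plus strand, and the Aldh1l1 window lies within the annotated span of the gene, downstream of its outermost start.
Gja1: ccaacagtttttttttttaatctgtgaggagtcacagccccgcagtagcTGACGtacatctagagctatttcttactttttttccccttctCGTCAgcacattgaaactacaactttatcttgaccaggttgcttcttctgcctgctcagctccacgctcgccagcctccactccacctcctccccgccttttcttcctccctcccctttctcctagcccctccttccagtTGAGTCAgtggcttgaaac
Aldh1l1: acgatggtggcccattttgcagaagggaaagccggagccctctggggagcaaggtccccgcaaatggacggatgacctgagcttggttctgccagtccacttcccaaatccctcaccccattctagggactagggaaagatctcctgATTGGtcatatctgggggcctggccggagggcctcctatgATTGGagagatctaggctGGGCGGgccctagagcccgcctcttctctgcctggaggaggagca
The Gja1 window held TGACG on each strand and 1 AP-1 element. The Aldh1l1 window held 2 CCAAT boxes on the minus strand, which read ATTGG here, and 1 GC box. No motif was found in both windows, and no match overlapped another.

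The remaining genes at T48 did not pass. Slc1a3 had 9.20, 9.06 and 9.08 log2 CPM in the deprived mice, against 9.11 to 9.42 in the undisturbed mice, with overlapping groups and a difference of -0.16 ± 0.06 (limma, adjusted p = 0.143). Gjb6 differed by -0.16 ± 0.08 and Glul by -0.10 ± 0.04 (limma, adjusted p = 0.391 and 0.269). Slc1a2 and S100b differed by -0.09 each, Aldoc by -0.06 and Aqp4 by -0.01. Gfap was the gene with a positive value, with 6.34, 6.18 and 6.29 in the deprived mice, against 5.95 to 6.13 in the undisturbed mice. Its groups did not overlap, and the difference was 0.24 ± 0.12 (limma, adjusted p = 0.379).

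Of the 36 further astrocyte genes at T48, 30 were negative, with a median of -0.08 log2, none was called as lower and 14 had an unadjusted p under 0.05. Agt, which encodes angiotensinogen, was called as higher (0.98 ± 0.25, limma adjusted p = 0.0301). Over all genes 1.49% passed at T48. In the reactive list Serpina3n, a protease inhibitor raised in reactive astrocytes, was higher (0.42 ± 0.11, limma adjusted p = 0.0347), and the list's median was -0.09. All 10 oligodendrocyte markers were positive, with a median of 0.25, none called (7 at an unadjusted p under 0.05), and sums of 3290 to 3750 CPM in deprived and 2460 to 3380 CPM in undisturbed mice. All 10 markers of meninges and fibroblasts were negative, with a median of -0.20, none called (1 at an unadjusted p under 0.05), and sums of 396 to 434 CPM in deprived and 391 to 565 CPM in undisturbed mice. Of 10 neuron markers Camk2a was lower (-0.18, limma adjusted p = 0.0295) and Gad2 higher (0.17, limma adjusted p = 0.0355). The sums of the neuron markers did not overlap, with 11900 to 12400 CPM in deprived and 12700 to 13300 CPM in undisturbed mice. Their median change was 0, with 5 positive and 5 negative values. Their mean log2 level per library overlapped, with 9.20 to 9.25 in deprived and 9.18 to 9.28 in undisturbed mice. No marker of these 3 lists was below 1 CPM, and their part in the Gja1 and Aldh1l1 results was not tested.

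**Figure D3:**
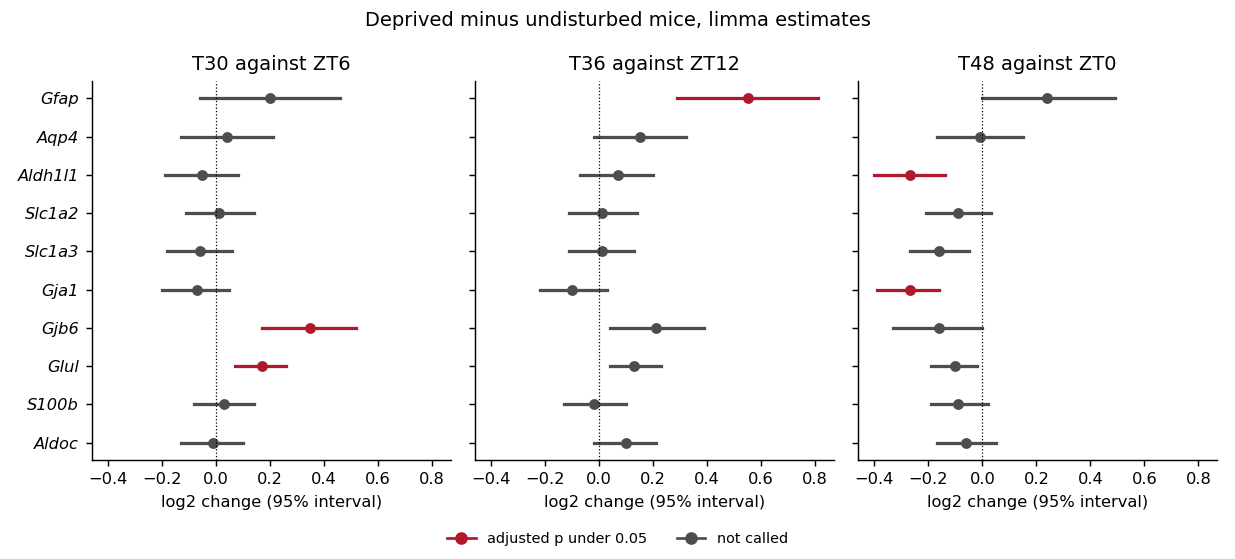
Log2 change (deprived minus undisturbed mice, horizontal axis) of the 10 genes at T30, T36 and T48, as limma estimates with 95% intervals. Red marks an adjusted p under 0.05, which holds for Gjb6 (0.35) and Glul (0.17) at T30, Gfap (0.55) at T36 and Gja1 and Aldh1l1 (-0.27 each) at T48.

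**Figure D4:**
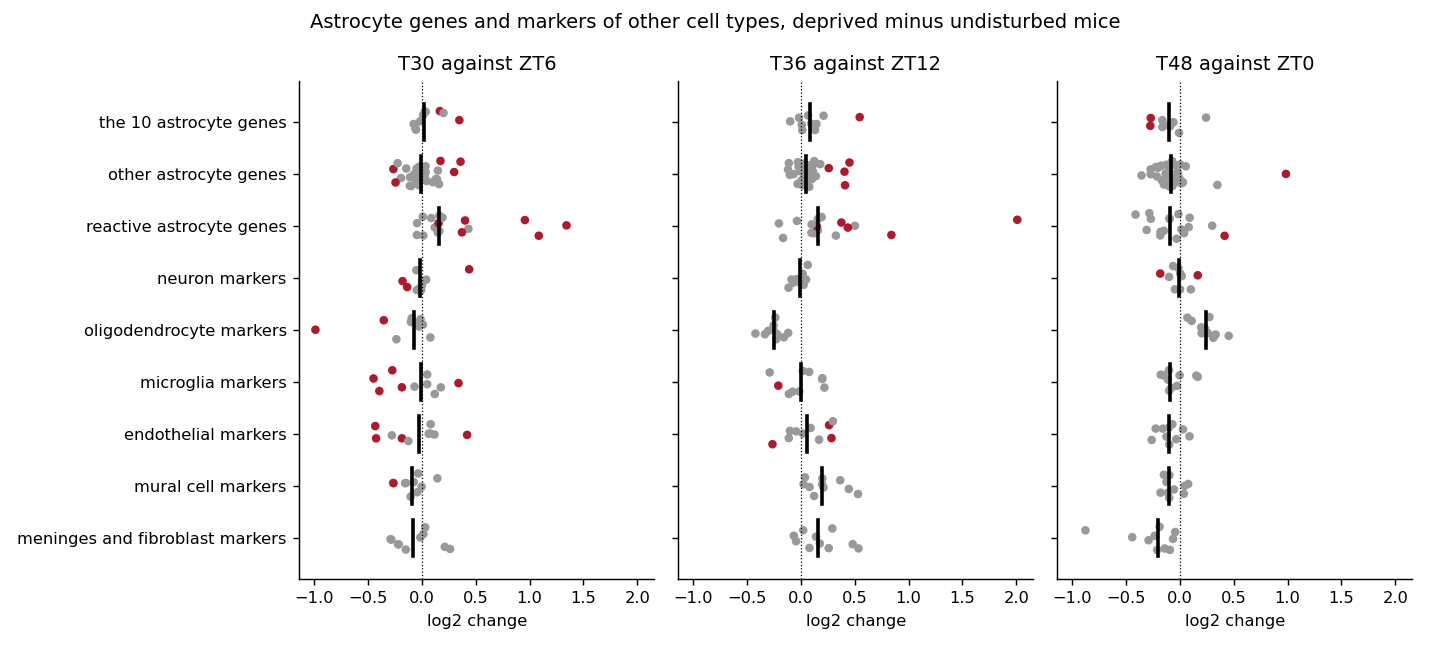
Log2 change (deprived minus undisturbed mice) of single genes in 9 lists at T30, T36 and T48. Each point is a gene, red where the limma adjusted p was under 0.05, and the black bar is the median of the list. At T48 the medians of the 10 astrocyte genes and of the further astrocyte genes lie below 0 (-0.10 and -0.08), and that of the oligodendrocyte markers lies above it (0.25).

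From T54 to T198 none of the 10 genes passed at any of the 7 times (limma), and neither did any other gene (0% of 17108), with between 902 and 1750 genes at an unadjusted p under 0.05 at each time. The count of 0 over all genes at T54 rested on 1 library, since 806 genes passed without the deprived mouse T54S4, none of them among the 10 genes. Without single deprived mice 25 genes passed at T66 (without T66S2) and 76 at T198 (without J76S2). Among the 10 genes Gja1 at T66 was the single one with an unadjusted p under 0.05. The deprived mice had 7.68, 7.49 and 7.49 log2 CPM of Gja1 at T66, against 7.34, 7.21, 7.31, 7.42 and 7.31 in undisturbed mice of ZT18. All deprived libraries were above all controls, and the difference was 0.24 ± 0.06 (limma, unadjusted p = 0.000508, adjusted p = 0.237). The deprived mice of T66 were all in batch 2. Gfap was uneven at T54 and T60, with 6.10, 6.44 and 5.75 in the deprived mice of T54 and 5.63, 6.38 and 5.96 in those of T60, and differed there by 0.07 and -0.01 from the undisturbed mice. At T66 all 3 deprived libraries of Gfap, at 5.85, 5.76 and 5.64, lay below the controls, which ranged from 5.91 to 6.07. The Gfap difference at T66 was -0.22 ± 0.13 (limma, adjusted p = 0.595). Groups without overlap were also found for Slc1a3 at T78 (-0.09) and Aqp4 at T192 (0.14), neither called. After 7 days of recovery the 10 genes differed by -0.12 to 0.14 log2 at T192 and by -0.14 to 0.09 at T198, with 95% intervals between -0.32 and 0.30.

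**Figure D5:**
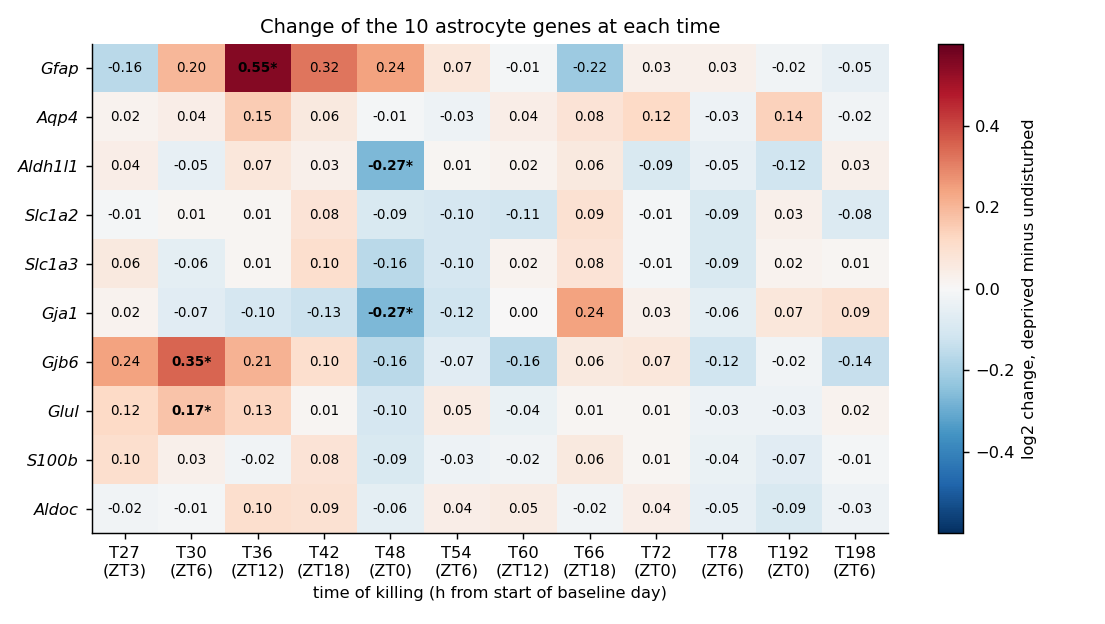
Log2 change (deprived minus undisturbed mice at equal ZT) of the 10 astrocyte genes at the 12 times, with red for higher and blue for lower in deprived mice. An asterisk and bold type mark a limma adjusted p under 0.05, and the 5 marked cells lie at T30, T36 and T48.

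Of the 10 genes, 6 are also listed in the liver of the same mice, where values were normalised separately: Aqp4, Aldh1l1, Slc1a2, Gja1, Glul and Aldoc. These values are described without a test. Glul, which hepatocytes near the central veins use to fix ammonia, had 8.87, 9.26 and 9.43 log2 CPM at T30, against 8.90 to 9.65 in undisturbed mice of ZT6, a difference of -0.18. Aldh1l1 had 10.04, 10.14 and 10.24 at T30, against 10.22 to 10.73 in undisturbed mice, a difference of -0.40. The deprived and undisturbed liver libraries of all 6 genes overlapped at T30. At T27 those of Aqp4, Aldh1l1, Gja1 and Aldoc overlapped too, and those of Glul and Slc1a2 did not. Glul had 9.01 to 9.12 log2 CPM in deprived mice and 9.14 to 9.45 in undisturbed mice of ZT3. Slc1a2 had 7.20 to 7.39 in deprived mice and 6.89 to 7.19 in undisturbed mice. Each of these groups held 3 mice, and the share of all liver genes without overlap at T27 was not counted.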

How the data were processed

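Cortex RNA was sequenced in 62 mice. Per the submitters' processing notes, the tools were fastp, STAR 2.7.0e and edgeR, and the build was GRCm38 (mm10). The cortex libraries are labelled as re-analysed earlier samples, and the labels' protocols describe liver only, so the sources used here give no cortex preparation, strand setting or annotation. The deposited values are log2 CPM, without counts or depth, so counting error and limits are unknown. Libraries sum to 979200 to 1020000 CPM. Of 17185 entries 77 have no gene name (0.0618% of the signal) and were left out. The labels give 2 batches (40 and 22 libraries). The batch term of the fit, 1 value per gene over all groups, was at most 0.0000 log2 in size, so the values had been adjusted before deposit. Within a single group the batches could still differ. Gfap at ZT0 ran from 6.03 to 6.13 log2 CPM in batch 1 and from 5.95 to 6.01 in batch 2. Batch 2 holds the complete T60, T66, T192 and T198 groups, and batch 1 all other deprived mice.

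Log2 values were tested as deposited, with no pseudocount or filter, in 1 fit of 17 groups and batch with limma 3.58.1 in R 4.3.3 (44 residual degrees of freedom, eBayes with a mean trend). Tests are two-sided, with Benjamini-Hochberg adjustment over 17108 genes and a threshold of 0.05. Each library is 1 mouse, so p-values rest on the spread between mice. That spread is 1 moderated value per gene over all 17 groups, not the spread of the 2 groups compared. The code was tested on simulated data. Gene positions and exon lengths are from the GENCODE annotation of GRCm38, and promoters from RefSeq. The members and lists were chosen with earlier results of these data known. All 10 members are reported, and from each other list at most 4 genes per comparison, those past the threshold with the smallest p. Alternatives were no batch term, centring, log2(CPM + 1), a filter on the lowest 20% of genes, eBayes without a mean trend, fits of the compared groups alone, same-batch controls and leaving out single libraries. Fits of the compared groups alone kept the batch term where both batches occurred. A deprived group was then in effect set against the controls of its own batch, so this setting overlaps with that of same-batch controls. The liver table was described only.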

Additional observations from a re-analysis of the deposited data

Results flagged for a closer look

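In undisturbed cortex at ZT6 the Gjb6 level of the mouse T6N3 was 5.84 log2 CPM, while the other 4 mice of its group lay between 5.40 and 5.48. Its gap to the nearest of them was 0.822 of the whole range of the group. It was the only such library among the 40 combinations of member and undisturbed group of 5 or more mice that were looked at, of which about 1 in 20 stand out by chance. Without single libraries of this comparison, the difference in Gjb6 at T30 ranged up to 0.45 log2.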

How the results depend on the processing

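No value of the 10 genes that passed the threshold changed its sign under any alternative. At T36 the number of members called was 1, and it was 2 without a batch term, with libraries centred on their median, without the lowest 20% of genes (Gfap and Glul each time), and with same-batch controls (Gfap and Gjb6). In fits of the compared groups alone the number was 1 at T27 (Gjb6), 0 at T30 and 0 at T48. Over the control times it was 2 (Aldh1l1 and Gja1) with same-batch controls. Leaving out single libraries gave 0 to 1 members at T27, 1 to 2 at T30, 0 to 3 at T36, 1 to 2 at T48 and 0 to 2 over the control times. The cause of these shifts was not tested.

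Counts over all genes moved more. At T48 they were 419 without a batch term and 50 in a fit of the 2 groups alone, against 255 as reported, and at T42 31 in a fit of the 2 groups alone and 98 with same-batch controls, against 177. Without T36S1 the count at T36 was 1078, against 2136. Over the control times same-batch controls gave 4672, against 7162. Without single libraries it was 113 to 157 at T48 (T48S1, T48S3, T48S4, T0N2 or T0N5 left out) and 52 to 77 at T42 (T42S2, T42S6 or T18N2 left out). Where the reported count was 0, the highest counts under any alternative were 806 at T54 (without T54S4), 44 at T60 (a fit of the 2 groups alone), 25 at T66 (without T66S2), 6 at T72 (no batch term) and 76 at T198 (without J76S2). The count of 1 gene whose change differed between T30 and T27 reached 4. No paired analysis was possible because the deprived and undisturbed cortex libraries came from different mice, and the animal codes are shared only by the cortex and liver of 1 mouse, which are not compared by a test. Groups of 3 mice and unknown depth limit all values.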

Other observations

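Among 12 genes of secreted factors and receptors by which astrocytes act on synapses, 3 passed at T30 or later. These were 2 of 12 at T30, where 32.4% of all genes passed, 1 at T36 (12.5% of all genes) and 1 at T48 (1.49% of all genes). Gpc4, a glypican that promotes synapse formation, was lower at T30 (-0.41 ± 0.09, limma adjusted p = 0.000544) and higher at T48 (0.36 ± 0.09, limma adjusted p = 0.0227) in deprived mice. The change at T36 was 0.49 log2 above that at T30 (limma, adjusted p = 0.00655). Mertk, a receptor with which astrocytes and microglia take up synaptic debris, was higher at T30 (0.23, limma adjusted p = 0.0179), and Gpc6 was higher at T36 (0.31, limma adjusted p = 0.0209). The medians of the 12 genes were 0.06 at T30, 0.08 at T36 and 0 at T48, beside -0.01, -0.003 and 0.001 over all genes.

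Foxj1, a transcription factor of ciliated ependymal cells that is also found in some astrocytes, was higher at T30 (0.75 ± 0.15, limma adjusted p = 0.000127) and at T36 (0.59 ± 0.15, limma adjusted p = 0.00661). Of the other 3 ependymal markers measured none was called at either time. Of the 4 measured, 2 averaged below 1 CPM in the deprived and in the undisturbed mice of both times.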
